A study of Penicillium oxalicum with 6 samples.

Results

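The highest-numbered gene IDs of Penicillium oxalicum held a group of genes whose transcripts were close to 0 in the Ku70 control strain and readily detected in the strain without POX09752. Members were the IDs from POX09343 to POX09834, leaving out POX09748 to POX09756 around the deleted gene, with a mean under 1 FPKM over the 3 Ku70 libraries and of at least 5 FPKM over the 3 deletion libraries. FPKM counts sequenced fragments relative to the length of a gene and the size of the library. The rule found 87 genes among the 483 IDs searched and the 9834 IDs in all. Members were thus chosen by their FPKM levels in the same 6 libraries, so the size of the strain difference is given as a description and was not tested. The IDs carry no product names, positions or sequences in the tables used here, so what these genes encode is not stated.

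Penicillium oxalicum is a filamentous fungus that secretes enzymes which degrade plant cell walls, and the series asked how the transcription factor POX09752 bears on its cellulase and xylanase genes. RNA sequencing covered 3 libraries labelled MuPOX09752, the deletion strain, and 3 labelled Ku70, the control. Ku70 is a protein of non-homologous DNA end joining, and fungi that lack it are often chosen for replacing genes. The labels describe the Ku70 strain as a mutant too, and the growth text names only that strain for every library, so whether the deletion strain also lacks Ku70 is not stated. All 6 libraries were labelled as mycelium (about 1 g) kept for 24 h in liquid medium with 2% Avicel, a microcrystalline cellulose. For every library the labels also give 6 d on plates, a temperature of 28 °C, shaking at 180 rpm and 100 mL of medium. No label says that the libraries of a strain came from separate cultures, so any p-value measures only the spread between these libraries. Whether a strain is 1 clone, and whether POX09752 was put back in any strain, is not stated in the labels.

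Fungal genomes hold many genes whose transcripts are scarce in a given laboratory culture. Well-known examples are clusters of genes for secondary metabolites, in which neighbouring genes are often transcribed together under a shared regulator. Which classes of gene stand behind the IDs described here is not known from the files.

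Depth was similar in all libraries, with total expected counts of 13099454 to 14115694. POX09752 had 0 FPKM in each of the 3 deletion libraries, against 46.4, 42.6 and 49.9 FPKM in the Ku70 libraries, so its transcript and the strain labels did not conflict. The strains differed widely. Of 8807 genes tested, 60.1% were called in either direction, 29.8% higher and 30.2% lower (edgeR quasi-likelihood test, adjusted p under 0.05). The deletion libraries were not equally alike: per gene, the counts of replicate 3 differed from those of replicates 1 and 2 by a chi-square of 79.2 and 74, against 11.5 between replicates 1 and 2 and 6.81 to 10.7 between Ku70 libraries.

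In the deletion strain the members reached ordinary expression levels. Their median was 16.1, 26.9 and 35.1 FPKM in deletion replicates 1, 2 and 3, against 0.19, 0.15 and 0.18 FPKM in Ku70 replicates 1, 2 and 3. In RNA from whole mycelium, more cells expressing a gene and more RNA per cell cannot be told apart, and because the IDs are unnamed no markers of spores or other cell types could be checked. For all tested genes the library medians were 29.1, 29.4 and 29.4 FPKM in the deletion strain and 27.5, 28.8 and 27.9 FPKM in Ku70. The median member, at a mean of 27.3 FPKM in the deletion strain, was above 53.1% of all IDs there, and the most strongly expressed member was above 95.7%. Together the members took 21958, 41783 and 45114 counts of the deletion libraries, or 0.164%, 0.319% and 0.334% of each, against 238, 209 and 223 counts of the Ku70 libraries. The lowest deletion library lay above the highest Ku70 library for all 87, and for 35.5% of all tested genes. All 87 were called higher, where 29.8% of tested genes were; since the rule used this contrast, neither count says more than the rule. The median fitted log2 fold change of the members was 7.79, and 6.995 when members at 0 in Ku70 were put at their bound, beside 0.01 for all tested genes. The bound sets 3 counts over the Ku70 libraries in place of 0. The 29 members with 1 to 3 such counts kept their fitted values, so 6.995 is not a median at that floor for all members.

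**Figure D1:**
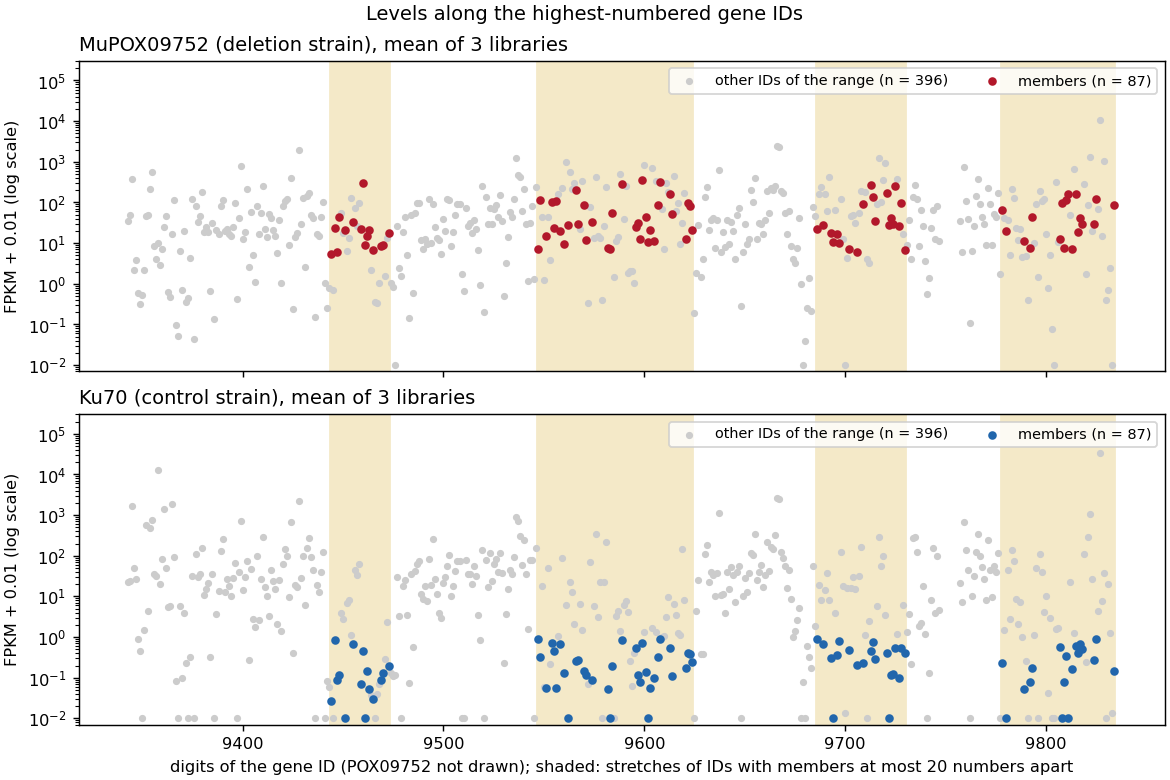
Mean FPKM (log scale, 0.01 added) of each searched gene ID in the deletion strain (top) and in Ku70 (bottom), plotted against the digits of the ID, with the 87 members in colour, the other 396 IDs in grey and the stretches that hold the members shaded. The members lie among the other IDs in the deletion strain and below 1 FPKM in Ku70, and they gather in 4 stretches of ID numbers.

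The members with the highest levels in the deletion strain were among the better expressed genes of that strain. POX09599, the highest, had 212, 553 and 305 FPKM in the deletion libraries, against 0.99, 0.89 and 0.29 FPKM in the Ku70 libraries. POX09608 had 196, 526 and 216 FPKM in the deletion libraries, against 0.62, 1.00 and 1.10 FPKM in Ku70. POX09460 had 230, 273 and 408 FPKM in the deletion libraries, against 0.21, 0.90 and 0.22 FPKM in Ku70. Replicate 2 was thus far above the other deletion libraries for POX09599 and POX09608, whereas replicate 3 was highest for POX09460. POX09589 (277 ± 134), POX09713 (273 ± 62.5), POX09725 (253 ± 135), POX09566 (207 ± 46.3) and POX09721 (169 ± 60.8) came next, in FPKM of the deletion strain with the SD of 3 libraries, and their Ku70 means lay between 0.24 and 0.82 FPKM. In counts scaled to library size the ratio of deletion to Ku70 was 495 for POX09599 (95% exact binomial interval 300 to 885) and 858 for POX09566 (368 to 2645). These intervals cover counting error only. In all, 17 members had a mean above 100 FPKM in the deletion strain and 16 a mean under 10 FPKM.

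The lowest members lay just inside the limit of 5 FPKM. POX09444 had 3.28, 4.12 and 8.54 FPKM in the deletion libraries, against 0, 0 and 0.05 FPKM in Ku70, so that deletion replicate 3 carried it past the limit. POX09447, POX09706 and POX09465 averaged 5.88, 5.89 and 6.65 FPKM in the deletion strain and 0.08, 0.19 and 0.02 FPKM in Ku70. Just outside this limit were POX09790, POX09374 and POX09629, with means of 4.88, 4.39 and 4.12 FPKM in the deletion strain and of 0.24, 0.31 and 0.37 FPKM in Ku70. At the other limit, POX09608 and POX09686 both averaged 0.91 FPKM in Ku70, POX09547 averaged 0.89 FPKM and POX09825 averaged 0.87 FPKM there. POX09547 had the smallest log2 fold change of all members, 2.95, from 5.53, 7.05 and 8.95 FPKM in the deletion libraries, against 1.46, 0.61 and 0.59 FPKM in Ku70. Just above the Ku70 limit, and so not members, were POX09609, POX09557 and POX09610, with means of 68.5, 160 and 7.34 FPKM in the deletion strain and of 1.01, 1.04 and 1.08 FPKM in Ku70. These genes were named for being nearest to the limits, so their closeness to them was set in advance. The number of members depended on the limits. It was 51 with limits of 0.5 and 10 FPKM and 108 with limits of 2 and 5 FPKM.

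How near to 0 the members were in Ku70 differed among them. No read was counted in any Ku70 library for 10 members, and 29 more had 1 to 3 counts over the 3 Ku70 libraries together. POX09811, the most abundant of the 10 by counts, had 115, 210 and 157 FPKM in the deletion libraries, a level at least 221-fold higher when 3 counts, the floor used here for 0 over a strain's libraries together, are set for Ku70. POX09722 had 17.7, 36.7 and 27.4 FPKM in the deletion libraries and was at least 180-fold higher against the same floor. For POX09602 and POX09808 the bounds were 87.9-fold and 85.5-fold, and the smallest of the 10 bounds was 30.1-fold, for POX09451. At this depth a level below the floor could not be told from no transcript.

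A further 48 members had more than 3 Ku70 counts, and 39 of these had counts in every Ku70 library. The 4 with at least 30 counts were named after their values were seen. POX09446 had 16.1, 23.6 and 29.2 FPKM in the deletion libraries, against 0.83, 0.83 and 0.88 FPKM in the Ku70 libraries, which rest on 21, 20 and 22 counts. POX09455 had 19.8, 22.9 and 55.7 FPKM in the deletion libraries, against 0.61, 0.54 and 0.81 FPKM in Ku70. POX09554 had 49.0, 85.1 and 178 FPKM in the deletion libraries, against 0.50, 0.68 and 0.97 FPKM in Ku70, and POX09555 was similar in Ku70, with 0.55, 0.57 and 0.21 FPKM. These genes were low in Ku70, and they were detected in each of its libraries. Across the 87 members, mean levels in the deletion strain and in Ku70 had a Spearman's rho of 0.39, and levels in pairs of Ku70 libraries one of 0.49 to 0.52. Both describe sparse counts, with a median of 4 Ku70 counts per member, from libraries that share depth and gene lengths.

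The members were not spread evenly over the searched IDs. Joining members whose ID numbers lay at most 20 apart, a distance chosen after the values were seen, gave 4 stretches: POX09444 to POX09473 with 15 members among 30 IDs, POX09547 to POX09624 with 34 among 78, POX09686 to POX09730 with 20 among 45, and POX09778 to POX09834 with 18 among 57. Members thus made up 41.4% of the 210 IDs within the stretches. The 273 IDs outside them held none, by construction, and the longest such block was the first 101 IDs, POX09343 to POX09443. Whether ID numbers follow the order of genes on the chromosomes was not checked here. The deleted gene, POX09752, has a number between the third and the fourth stretch.

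Within the stretches, members stood in short runs of consecutive numbers. There were 11 runs of at least 3 members, which held 42 of the 87, together with 11 pairs and 23 members with no member next to them. Members filled 41.4% of the IDs there, a density at which many runs arise by itself, and the number of runs was not tested. The longest runs had 5 members: POX09459 to POX09463, POX09721 to POX09725 and POX09807 to POX09811. Levels differed widely within a run. In the first, POX09460 had a mean of 304 FPKM in the deletion strain, while POX09459 and POX09463 on its ends had 22.0 and 20.8 FPKM. In the second, POX09721 and POX09725 had 169 and 253 FPKM in the deletion strain and POX09722 between them 27.3 FPKM. In the third, POX09807 had 12.7 ± 2.95 and POX09811 161 ± 47.6 FPKM (mean ± SD of the 3 deletion libraries). The runs of 4 members were POX09596 to POX09599, with means of 25.3 and 357 FPKM at its ends, POX09621 to POX09624, with 12.8 and 20.5 FPKM at its ends and 96.4 FPKM for POX09622, and POX09815 to POX09818. How many members fell into runs depended on the limits: it was 11 with limits of 0.5 and 10 FPKM and 68 with limits of 2 and 5 FPKM.

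The IDs standing between the members were mostly higher in the deletion strain as well. Of the 104 tested IDs within the stretches that were not members, 81 were called higher, 9 lower and 14 neither (edgeR quasi-likelihood test, adjusted p under 0.05), which is 77.9% higher beside 29.8% of all tested genes. Of the 81, 76 had at least 1 FPKM in Ku70. Among the IDs with at least 1 FPKM in Ku70, those called at least 2-fold higher were 4 of 9 in the first stretch, 28 of 36 in the second, 13 of 23 in the third and 15 of 30 in the fourth, beside 10.2% of the 8508 tested genes with that level in Ku70. Of the 231 tested IDs outside the stretches, 73 were called higher, 61 lower and 97 neither, a share of 31.6% higher, close to that of all tested genes. Of the IDs that were not members, 12 of 123 within the stretches (9.76%) and 33 of 273 outside them (12.1%) stayed under 1 FPKM in both strains. The stretches were drawn around members, which the same contrast had chosen, so these shares describe the stretches and were not tested against each other.

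**Figure D2:**
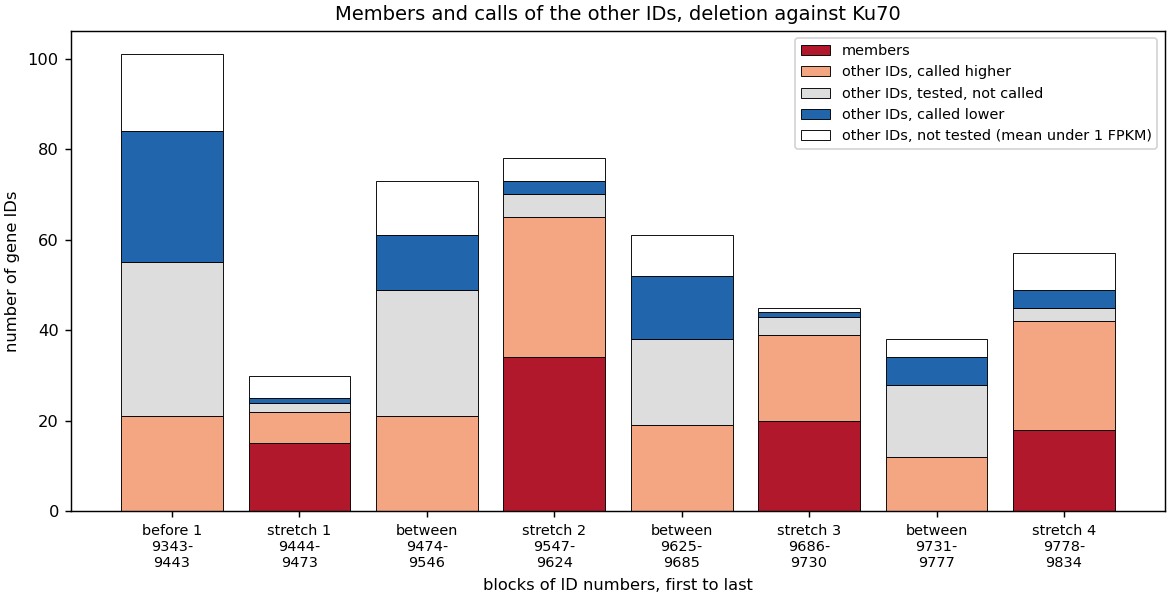
Number of gene IDs in each block of ID numbers, split into members, other tested IDs called higher, not called or called lower in the deletion strain, and IDs not tested because their mean was under 1 FPKM; POX09748 to POX09756 are left out. Each of the 4 stretches holds 15 to 34 members. Of the other tested IDs, 9 of 104 within the stretches and 61 of 231 outside them are called lower. The blocks differ in size, and the fourth stretch (4 of 31) and the block before it (6 of 34) are less far apart.

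The rule took only the mean of the 3 deletion libraries and set no limit on the spread between them. Mean and spread come from the same values, so the spread is not independent of the rule, and 1 high library could carry a gene past the limit. With every library of both strains held to its limit, 61 members remained. The median coefficient of variation over the 3 deletion libraries was 44.1% for the members, ranging from 11.3% to 135%. For the 7267 tested genes whose deletion mean lay in the members' range it was 9.79%, and all 87 members were above that value. The 267 other searched IDs in this range had a median of 13.0%, and the 34 genes elsewhere among the IDs that met the same limits had 31.4%. These medians were not tested against each other. Of the members, 83 had at least 100 counts over the deletion libraries, and the median of those 83 was 45.2%. The value rested in part on deletion replicate 1: without this library the median was 28.1%, whereas without replicate 2 or 3 it was 45.3% or 40.4%.

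Deletion replicate 1 had the lowest level of the deletion libraries for 79 of the 87 members, or 90.8%, beside 30.2% of the tested genes in the same range of levels and 17 of the 34 genes elsewhere among the IDs that met the same limits. Replicate 2 was highest for 43 members and replicate 3 for 42, 1 member had equal values in both, and the remaining one, POX09451, was highest in replicate 1. Among the tested genes in that range of levels, 28.0% were highest in replicate 1, 31.3% in replicate 2 and 40.8% in replicate 3. The members' share for replicate 3, 48.3%, was thus not far from that of the other genes. The median ratio of replicate 2 to replicate 1 was 1.80 and that of replicate 3 to replicate 1 was 1.92, against 1.00 each for the 7267 genes. For the 34 genes elsewhere these medians were 1.36 and 1.05. At least a 2-fold excess over replicate 1 was seen for 34 members (39.1%) in replicate 2 and for 40 (46.0%) in replicate 3, but for 1.16% and 2.50% of those genes. These are differences between single libraries of 1 strain, and no replicate check of them exists. The library totals were 13367765, 13099454 and 13522926 counts in deletion replicates 1, 2 and 3, and FPKM is already scaled to them. With FPKM divided by TMM scaling factors the members' median coefficient of variation was 43.9%, and replicate 3 was highest for 42. After quantile normalization these values were 45.1% and 43. The part of the totals in the ratios themselves was not tested.

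**Figure D3:**
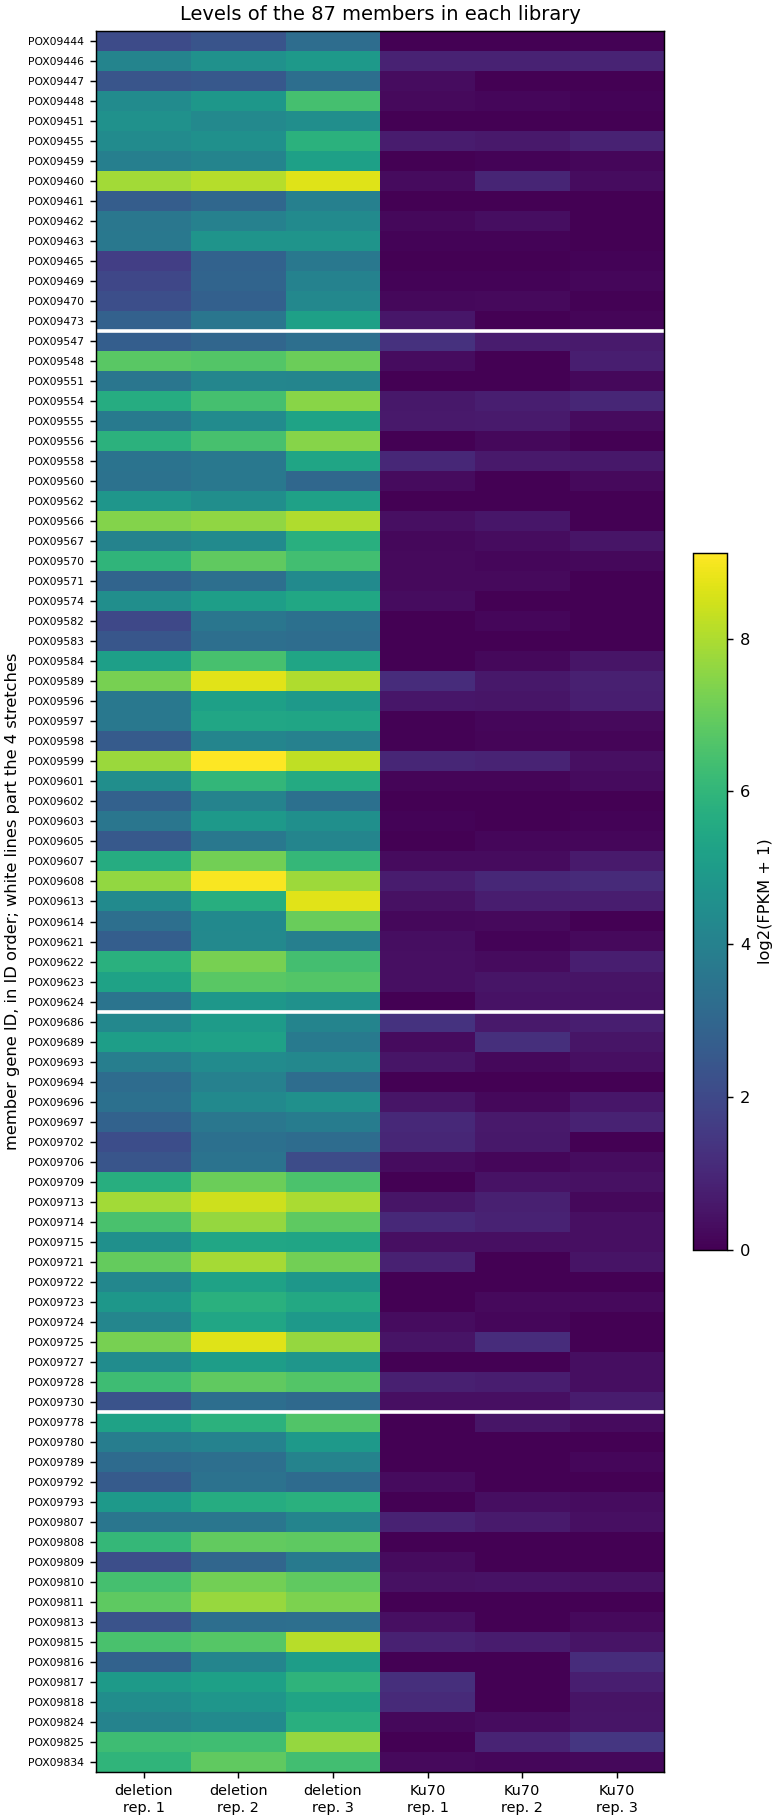
Level of each member, as log2(FPKM + 1), in the 3 deletion libraries (left) and the 3 Ku70 libraries (right), with members in ID order and white lines between the 4 stretches. The deletion libraries are brighter than the Ku70 libraries in every row, replicate 1 is the dimmest deletion library in 79 rows, and whether replicate 2 or 3 is brightest changes from stretch to stretch.

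Which deletion library was highest differed between the stretches. In the first stretch replicate 3 was highest for 13 of 15 members, with median ratios to replicate 1 of 1.32 for replicate 2 and 2.60 for replicate 3. In the third stretch replicate 2 was highest for 18 of 20, with median ratios of 1.95 and 1.34. In the fourth, replicate 3 was highest for 13 of 18, with 1.61 and 1.97. The second stretch changed along its length. Up to POX09574, replicate 3 was highest for 11 of 14 members and replicate 2 stood at 1.30 times replicate 1. From POX09582 on, replicate 2 was highest for 17 of 20 and stood at 2.72 times replicate 1, within 2.02 to 3.71 for every one of the 20. The stretches and this division were chosen after the values were seen and carry no test. For pairs of members at most 5 numbers apart, the log2 ratio of replicate 2 to replicate 1 differed by a median of 0.30 (167 pairs), and for all other pairs by 0.55 (3572 pairs). For replicate 3 to replicate 1 the medians were 0.51 and 0.71, over the same pairs. The pairs with identical values described below were not counted.

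The expressed genes between the members were compared with them by the same ratios, over the IDs with at least 1 FPKM in Ku70 that were called at least 2-fold higher. In the second part of the second stretch there were 17 such IDs, and their median ratio of replicate 2 to replicate 1 was 2.66, with a range of 1.99 to 3.48. In the first part of that stretch, 9 such IDs had a median ratio of 1.36, beside 1.30 for the members there. Elsewhere their ratios were below those of the members: the median ratio of replicate 2 to replicate 1 was 1.15 in the first, 1.502 in the third and 1.15 in the fourth stretch, beside 1.32, 1.95 and 1.61 for the members. For replicate 3 to replicate 1 it was 2.52, 1.31 and 1.63 in those stretches, beside 2.60, 1.34 and 1.97 for the members. These differences were not tested.

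**Figure D4:**
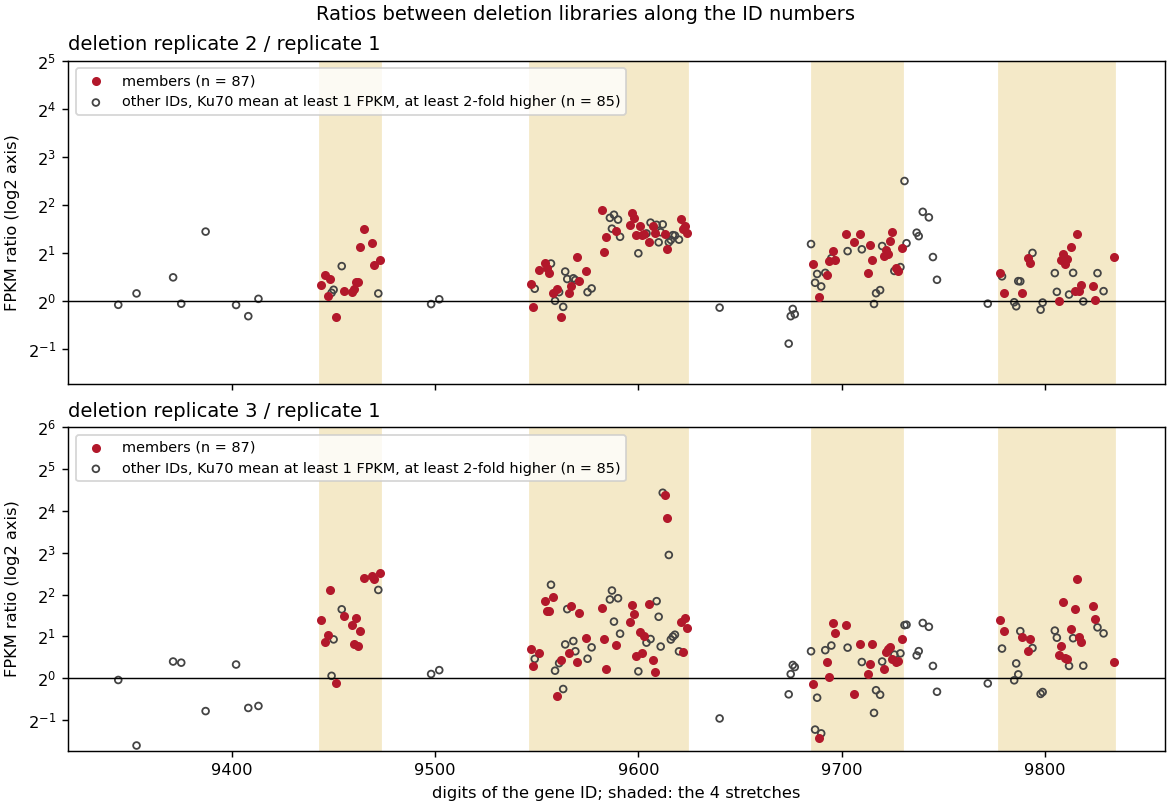
Ratio of FPKM in deletion replicate 2 (top) and replicate 3 (bottom) to that in deletion replicate 1 (log2 axes) against the digits of the gene ID, for the 87 members (filled) and for the 85 other searched IDs with at least 1 FPKM in Ku70 that were called at least 2-fold higher (open), with the stretches shaded. In the second stretch the upper ratios step from a median of 1.30 to one of 2.72 for the members, and in the lower panel POX09612 and POX09613 reach ratios of 21.6 and 21.0.

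Single members stood apart from their stretch. POX09613 had the widest spread, with 19.8, 51.9 and 416 FPKM in deletion replicates 1, 2 and 3, against 0.32, 0.66 and 0.64 FPKM in the Ku70 libraries. Its neighbour POX09614 had 8.96, 19.1 and 129 FPKM in the deletion libraries, against 0.15, 0.16 and 0 FPKM in Ku70. Replicate 3 was thus 21.0 and 14.3 times replicate 1 for these genes, in a part of the stretch where its median was 2.22 times. The IDs on either side, named after their values were seen, were not members: POX09612 had 21.0, 63.4 and 454 FPKM in the deletion libraries, against 9.39, 10.1 and 8.82 FPKM in Ku70, and POX09615 had 124, 290 and 958 FPKM, against 6.73, 6.60 and 5.83 FPKM. Beyond them, POX09611 and POX09616 were 1.69 and 1.90 times as high in replicate 3 as in replicate 1, so the largest ratios stood in 4 consecutive IDs. Replicate 3 was also well above replicate 1 further off, at 3.59 times for POX09609 and 5.40 times for POX09619. Neither is a member, and POX09619 was lower in the deletion strain than in Ku70, with a log2 fold change of -2.28. POX09473, at the end of the first stretch, was next in spread, with 6.11, 11.0 and 35.1 FPKM in the deletion libraries, against 0.48, 0 and 0.08 FPKM in Ku70.

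The steadiest members were POX09451, with 23.3, 18.6 and 21.6 FPKM in the deletion libraries, POX09548, with 110, 101 and 135 FPKM, and POX09693, with 13.9, 20.1 and 18.0 FPKM. In Ku70 they had 0 FPKM in each library, a mean of 0.31 ± 0.35 FPKM and a mean of 0.29 ± 0.14 FPKM (SD, n = 3). Only 4 members had their lowest deletion level in replicate 3: POX09689, with 33.5, 35.8 and 12.5 FPKM, POX09686, with 18.1, 30.8 and 16.3 FPKM, POX09560, with 9.77, 11.7 and 7.28 FPKM, and POX09706, with 4.29, 10.1 and 3.30 FPKM. Of these, 3 belong to the third stretch, which had the smallest ratio of replicate 3 to replicate 1.

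Some members were not independent of each other. POX09567 and POX09824 had the same expected count and FPKM in all 6 libraries, and so had POX09570 and POX09834. The first pair had 15.7, 19.4 and 52.3 FPKM in the deletion libraries, against 0.14, 0.22 and 0.42 FPKM in Ku70. The second had 61.6, 116 and 80.4 FPKM in the deletion libraries, against 0.16, 0.11 and 0.15 FPKM in Ku70. Among the 9338 IDs with at least 10 counts over the 6 libraries these were the only pairs with identical values. Whether these IDs are near-identical genes between which reads were divided, or entries listed more than 1 time for the same gene, was not tested, so the level of each is uncertain. The 87 IDs give 85 distinct sets of values. Each pair joins an ID of the second stretch to one of the fourth. POX09579, POX09791 and POX09830, from the same stretches, also shared 1 set of values, of 6 counts each. In all, 20 members (23.0%) had a count that was not whole in some library, compared with 11.2% of all IDs and 20.7% of the other searched IDs. POX09567 and POX09824 had whole counts in each deletion library.

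The members had short implied lengths. The length implied by count, FPKM and library total had a median of 497 bases over the members, against 1218 bases over the tested genes. The other searched IDs that were tested had a median of 884 bases and the 34 genes elsewhere that met the same limits one of 767 bases. It was under 500 bases for 51.7% of members and for 16.1% of tested genes. Whether the fragment length was taken off in this scaling is not stated, so these lengths need not be those of the whole genes. POX09816, POX09808 and POX09825, the shortest, came to 58.9, 62.0 and 83.9 bases. POX09816 had 5, 13 and 26 counts in the deletion libraries, against 0, 0 and 1 in Ku70, and its 6.35, 16.8 and 32.7 FPKM in the deletion libraries are the least certain levels of these 3. The longest members were POX09598, POX09605 and POX09455, at 2858, 2293 and 2216 bases. POX09598 had 5.13, 16.9 and 14.9 FPKM in the deletion libraries, against 0.05, 0.08 and 0.08 FPKM in Ku70. In implied length, members of the first stretch, with a median of 1163 bases, were close to the tested genes, and those of the fourth, with 318 bases, were the shortest.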

How the data were processed

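Per the file headers, every deposited table gives 9834 gene IDs with their expected count and their FPKM. Tools listed in the submitters' processing notes are RSEM (1.2.12), Bowtie2 (2.1.0), BWA (0.7.10-r789) and DESeq2, without their roles. The build, annotation and strand setting were not given in the sources used here. Expected counts were deposited without normalization, whereas the authors had scaled FPKM to gene length and library total. All 6 libraries were fitted together with edgeR 4.0.16 in R 4.3.3 on the counts rounded to whole numbers (quasi-likelihood test, TMM scaling, Benjamini-Hochberg adjustment, threshold 0.05). The fit took the 8807 genes averaging 1 FPKM or more. It was also run on simulated counts with known changes. Those changes were smaller than the changes of most members, and the counts were drawn with the spread that the fit itself had estimated. That run therefore does not check the fit for genes near 0 in a strain. DESeq2 1.42.0 and limma 3.58.1 served as alternatives.

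The members and lists were chosen with earlier results of these data known. Genes were named by rank among the members: highest, lowest and nearest to the limits (also just outside them), most counts with none in Ku70, ends and peaks of the longest runs, widest and narrowest spread, lowest in deletion replicate 3, longest and shortest. The floor for a strain at 0 was 3 counts over its libraries. Intervals cover counting error only. None of the IDs was paired with a reference sequence, so no sequence or position is given.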

Additional observations from a re-analysis of the deposited data

How the results depend on the processing

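All 87 members were called higher under each edgeR scaling, DESeq2, limma, the replicate block and each left-out library, except that a filter of a mean of at least 5 FPKM left 71 to test, all called. Over all tested genes 5290 were called, and between 4459 and 5819 when a library was left out. Of the other searched IDs 154 were called higher, and between 140 and 166 when a library was left out. The members' median log2 fold change of 7.79 was 4.34, 6.78 and 2.55 in limma with pseudocounts of 1, 0.1 and 5, which shrink changes from near 0. Limits of 0.5 and 10 FPKM left 51 members, all among the 87. With a library left out the rule found 82 (without deletion replicate 3) to 88 IDs. Members in runs numbered 42, and 11 with limits of 0.5 and 10 FPKM, 68 with limits of 2 and 5 FPKM, 23 where every library had to pass its limit (61 members), 64 for runs of at least 2, and between 39 and 47 when a library was left out. The median coefficient of variation ran from 28.1% without deletion replicate 1 to 45.3%. The 680 values of the 46 named genes fitted under an alternative kept their direction and side of the threshold. Most of these genes are members, chosen by the same strain contrast, so this and the calls of all 87 were largely set by the rule. Deviations of same-numbered libraries of the strains correlated at -0.017, 0.156 and 0.075, and those of differently numbered libraries at -0.129 to 0.063. These values do not settle whether replicate numbers pair the samples. With the replicate block 5282 genes were called, 155 of them other searched IDs called higher. Counting IDs with identical values as 1, chosen after seeing the data, left 85 members. Depth limits the Ku70 levels, at a median of 4 counts over 3 libraries.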
